A study of Mus musculus with 6 samples.

Results

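The numbered zinc finger protein genes of the mouse carry symbols made of Zfp and a number. They were taken as all probes whose only gene symbol begins with Zfp followed by a digit, leaving out Zfp36, Zfp36l1 and Zfp36l2. This gave 90 genes on 98 probes, of 16281 probes in all, of which 13738 had a single symbol. A total of 82 genes, on 89 probes, were measured on all 6 arrays and are the members tested here, among 11231 features (genes, or probes without a single symbol) measured on all arrays. The symbols left outside by the rule that begin with Zfp are Zfp36, Zfp36l1, Zfp36l2, Zfpl1, Zfpm1 and Zfpm2.

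The RNA came from RAW 264.7 cells, a mouse macrophage-like line grown from a virus-induced tumour. Treated cells had received lipopolysaccharide (LPS, 100 ng/ml), an endotoxin of Gram-negative bacteria, and LPS-binding protein (LBP, 100 pM), the serum protein that hands LPS to its receptor, and were cultured for 2 h. Untreated cells were cultured for the same 2 h without these agents. Each array carried both RNAs, with the treated RNA in the red dye Cy5 on 3 arrays and in the green dye Cy3 on the other 3, called Cy5 arrays and Cy3 arrays here, and the arrays of each orientation are numbered as sets 1 to 3. Whether the sets came from separate cultures is not given in the labels. The p-values below weigh a mean only against the spread between sets, pooled in part over all features, and that spread may be technical. A single cell line and joint treatment were used, and LPS and LBP were not separated.

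Most proteins of this naming group bind DNA through tandem C2H2 zinc fingers. A large share of them in the mouse carry a KRAB domain, which recruits the corepressor TRIM28 (also called KAP1) and through it the histone methyltransferase SETDB1 and heterochromatin protein 1. Many such repressors bind and silence transposable elements, and their genes lie in clusters of related copies. Other numbered members lack that domain. Members of the group act in splicing, ribosome assembly, imprinting or cell division, so the name does not mark a single function. Whether array probes for close relatives in this family pick up each other's transcripts was not tested.

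Values are log2 ratios of treated over untreated RNA, so a positive value means more transcript after LPS and LBP. They are ratios within an array and hold no level of a transcript, so whether a member or a cell type marker was present cannot be read from them. All 10 of 10 LPS-induced control genes were positive on all arrays once the swapped arrays were turned. Their means over sets lay between 1.32 for Ptgs2 and 3.98 for Il1b. The lowest value on a single array was 0.05, for Ptgs2 on the set 2 Cy5 array. Of 10 measured markers of lymphocytes, fibroblasts, endothelium and epithelium, 0 passed the limma test, against 14.8% of all features. At an unadjusted p under 0.05, 2 were higher and 0 lower. Their mean log2 ratios ran from -0.20 to 0.22.

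More numbered Zfp genes fell than rose, and the changes were small. After 2 h of LPS and LBP, 6 of the 82 measured members were higher (7.32%) and 12 were lower (14.6%), by limma with Benjamini-Hochberg adjustment over all features at a threshold of 0.05. Over all features 14.8% passed that threshold, 7.35% higher and 7.45% lower, so the members' share of higher calls was near the background and their share of lower calls was above it. The 18 members past the threshold made up 22% of those measured. Of the calls among members 66.7% were lower, against 50.2% among the other 11149 features. At an unadjusted p under 0.05 the split was 13 higher and 20 lower among members, and 1492 higher and 1658 lower over all features. These shares are descriptions, since the members were not tested as a list.

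The lean towards lower values also appeared without a threshold, but not in every set. The average log2 ratio over sets was positive for 34 of the 82 members (41.5%) and for 48.3% of the other features. The median of the members' mean log2 ratios was -0.04, and that of the other features was -0.004. By set, 53.7%, 47.6% and 40.2% of members were positive in sets 1, 2 and 3, against 49.8%, 46.3% and 49.6% of the other features. Among the set averages, a share of positive members below that of the other features was seen in set 3 alone. Leaving set 3 out gave 2 members higher and 3 lower, with 352 features higher and 211 lower over the whole table, and 48.8% of members positive. The 5 members still past the threshold were Zfp275, Zfp593, Zfp64, Zfp248 and Zfp810.

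**Figure D1:**
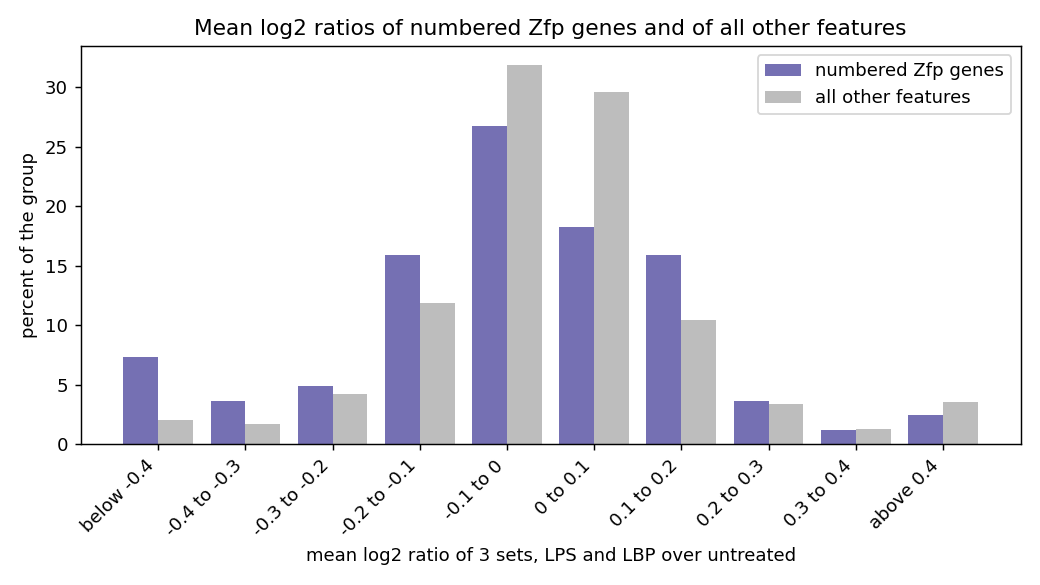
Share of numbered Zfp genes and of the other features (percent, y axis) in each range of the mean log2 ratio, treated over untreated (x axis). Members took 7.32% of their number below -0.4, against 2.05% of the other features, and 18.3% against 29.6% between 0 and 0.1.

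Members spread more widely around 0 than other features did, but seldom changed by much. The interquartile range of the mean log2 ratios was 0.23 for members and 0.15 for the other features, and the median SD between sets was 0.11 and 0.08. Only 1 member passed a 1.5-fold change in either direction (1.22%), against 2.96% of all features, of which 235 were higher and 97 lower. Among the called genes the median fold of a rise was 1.25 for members and 1.30 for the other features, and that of a fall was 1.32 and 1.23.

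**Figure D2:**
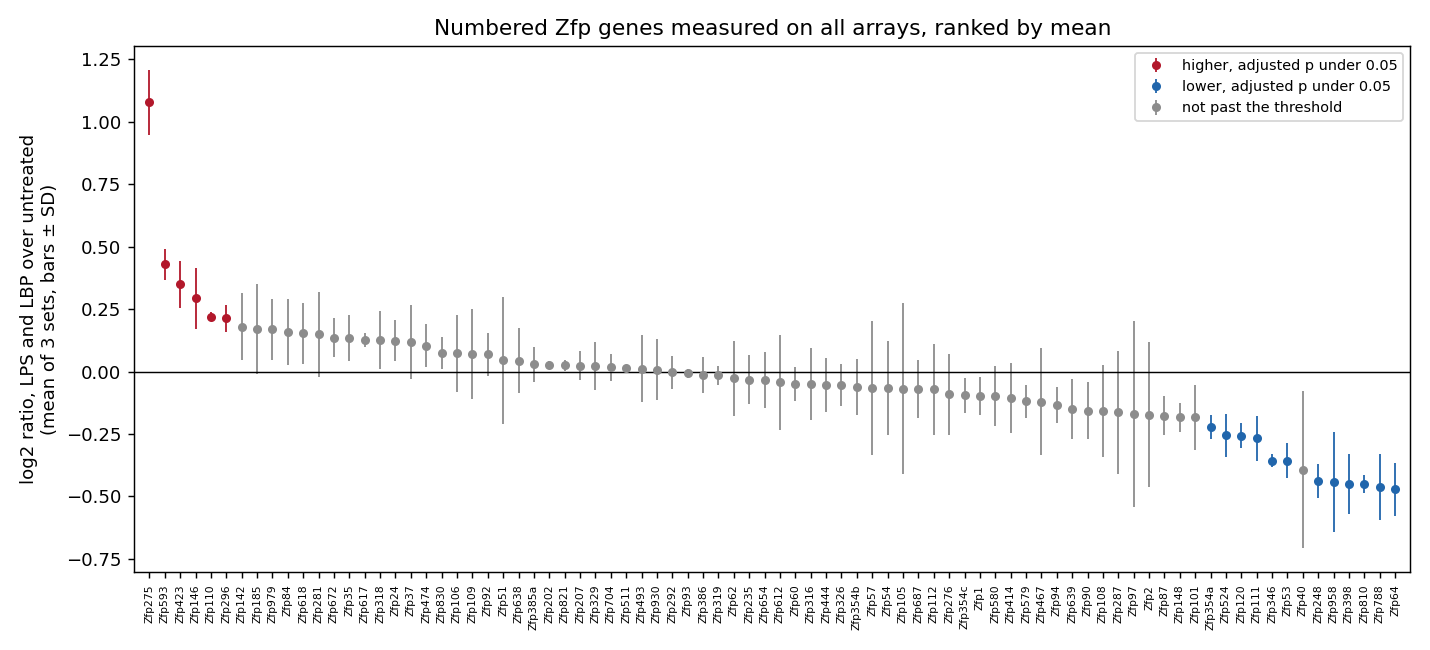
Mean log2 ratio, treated over untreated, for the 82 measured numbered Zfp genes in rank order, with bars for the SD over 3 sets and colours for members past an adjusted p of 0.05. Zfp275 stands alone at 1.08, and the next member is at 0.43.

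The member with the largest change was Zfp275, a C2H2 zinc finger gene on the X chromosome. With the treated RNA in Cy5 its log2 ratio was 1.21, 1.09 and 0.91 in sets 1 to 3, and with the treated RNA in Cy3 it was 1.21, 1.05 and 0.99. All 6 arrays were high and lay close together in both dye orientations. The mean was 1.08 ± 0.13 (SD, n = 3 sets), a 2.11-fold rise with an adjusted p of 0.000164 by limma and a 95% interval of 0.93 to 1.23. It ranked 112 from the top among the 11231 features, and was the only member among the 123 features that rose more than 2-fold. It rests on a single probe.

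The promoter window of Zfp275 is printed to show the letters upstream of the member that rose most, beside those of Zfp64 and Zfp810, members that fell. The sequences are from RefSeq (build GRCm38.p6), cover 300 bases that end shortly after the annotated start, and run 5′ to 3′ on the strand of the gene. Capitals mark matches, on either strand, to the CCAAT box (CCAAT), the GC box (GGGCGG) and the NF-kappaB motif. NF-kappaB is the transcription factor that LPS signalling activates.
Zfp275, chrX:73342370-73342669, plus strand: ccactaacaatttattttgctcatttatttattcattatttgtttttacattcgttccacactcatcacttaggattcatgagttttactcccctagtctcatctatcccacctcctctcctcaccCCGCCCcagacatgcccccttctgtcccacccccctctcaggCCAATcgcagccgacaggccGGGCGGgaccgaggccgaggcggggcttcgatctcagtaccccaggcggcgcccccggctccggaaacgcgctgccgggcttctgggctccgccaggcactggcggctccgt
Zfp64, chr2:168955538-168955837, minus strand: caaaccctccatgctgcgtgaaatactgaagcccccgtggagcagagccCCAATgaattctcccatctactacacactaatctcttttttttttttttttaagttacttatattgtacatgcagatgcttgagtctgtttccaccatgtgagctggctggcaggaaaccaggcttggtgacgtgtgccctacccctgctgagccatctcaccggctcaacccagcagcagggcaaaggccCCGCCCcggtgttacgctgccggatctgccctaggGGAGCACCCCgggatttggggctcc
Zfp810, chr9:22307589-22307888, minus strand: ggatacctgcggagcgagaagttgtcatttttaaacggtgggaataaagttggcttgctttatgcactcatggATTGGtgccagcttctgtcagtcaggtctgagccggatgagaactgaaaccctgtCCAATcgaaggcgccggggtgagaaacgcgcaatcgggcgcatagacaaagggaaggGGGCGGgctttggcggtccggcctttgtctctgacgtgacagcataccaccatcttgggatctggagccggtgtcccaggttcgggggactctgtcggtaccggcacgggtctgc
The Zfp275 window held a CCAAT box from -82 to -78 relative to the start, a GC box from -62 to -57 and another on the opposite strand from -124 to -119, with no match to the NF-kappaB motif. The Zfp64 window held an NF-kappaB match on the opposite strand, 25 to 34 bases after the start. A match describes letters in the window and does not show that a factor binds there.

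Across the 64 members tested here that have a promoter in that table, matches to the NF-kappaB motif were in 11 (17.2%), against 9.55% of all 27025 genes. The AP-1 motif TGANTCA was in 7.81% of members and 8.97% of all genes, and the E-box CACGTG in 6.25% and 8.09%. The CRE motif TGACGTCA was in 0 of 64 members and 2.03% of all genes, and the interferon response element in 0 of 64 and 3.99%. The GC box was in 57.8% of members and 38.2% of all genes, and the ETS motif CCGGAAG in 21.9% and 9.93%. The CCAAT box was in 46.9% and 41.1%, and the TATA box TATAAA in 9.38% and 15.7%. Of the called members with a promoter, the NF-kappaB motif was in 0 of 5 that rose and 1 of 9 that fell, while the CCAAT box was in 2 of 5 and 7 of 9. Windows of a gene with several promoters were counted once per gene, and a match on either strand counted.

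The other 5 members that rose did so by less than 1.5-fold and were positive on all 6 arrays, taking the average of probes for Zfp110. Zfp593, a short protein whose yeast relative Bud20 helps export the large ribosomal subunit, had log2 ratios of 0.34, 0.40 and 0.37 with the treated RNA in Cy5 and 0.43, 0.60 and 0.44 with it in Cy3. Its mean was 0.43 ± 0.06 (SD, n = 3 sets), a 1.35-fold rise with an adjusted p of 0.00237 by limma. It ranked next after Zfp275 among the members, and 366 of all features.

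Zfp423, a partner of EBF and SMAD proteins that takes part in the commitment of preadipocytes, was at 0.41, 0.34 and 0.34 in the Cy5 orientation and at 0.48, 0.18 and 0.35 in the Cy3 orientation. It averaged 0.35 ± 0.09, 1.27-fold, with an adjusted p of 0.00807 (limma, n = 3 sets). The lowest of its arrays was the set 2 Cy3 array.

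Zfp146, a protein made almost only of zinc fingers, had 0.13, 0.28 and 0.36 with the treated RNA in Cy5 and 0.17, 0.45 and 0.36 with it in Cy3. Its mean of 0.29 ± 0.12 was a 1.23-fold rise (adjusted p = 0.0225, limma, n = 3 sets), with set 1 the lowest in both orientations. Zfp110, which binds the p75 neurotrophin receptor and is also called NRIF, was read by 2 probes. They averaged 0.20 (adjusted p = 0.0353 fitted singly, limma) and 0.23 (0.0186). Its gene mean was 0.22 ± 0.02, 1.16-fold, with an adjusted p of 0.0218 by limma (n = 3 sets). The average of its probes read 0.14, 0.07 and 0.16 in the Cy5 orientation and 0.27, 0.36 and 0.32 in the Cy3 orientation. Every Cy3 average was thus above every Cy5 average. Single probes differed: 1 was at -0.04 on the set 2 Cy5 array. The other read 0.18 on the set 1 Cy3 array and 0.19 on the set 3 Cy5 array.

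Zfp296, a heterochromatin-associated protein of pluripotent cells, was the weakest riser. Its log2 ratios were 0.26, 0.07 and 0.25 with the treated RNA in Cy5 and 0.05, 0.37 and 0.27 with it in Cy3. The mean was 0.21 ± 0.05, a 1.16-fold rise (adjusted p = 0.0310, limma, n = 3 sets). The values of both orientations overlapped, and 1 array of each was close to 0.

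**Figure D3:**
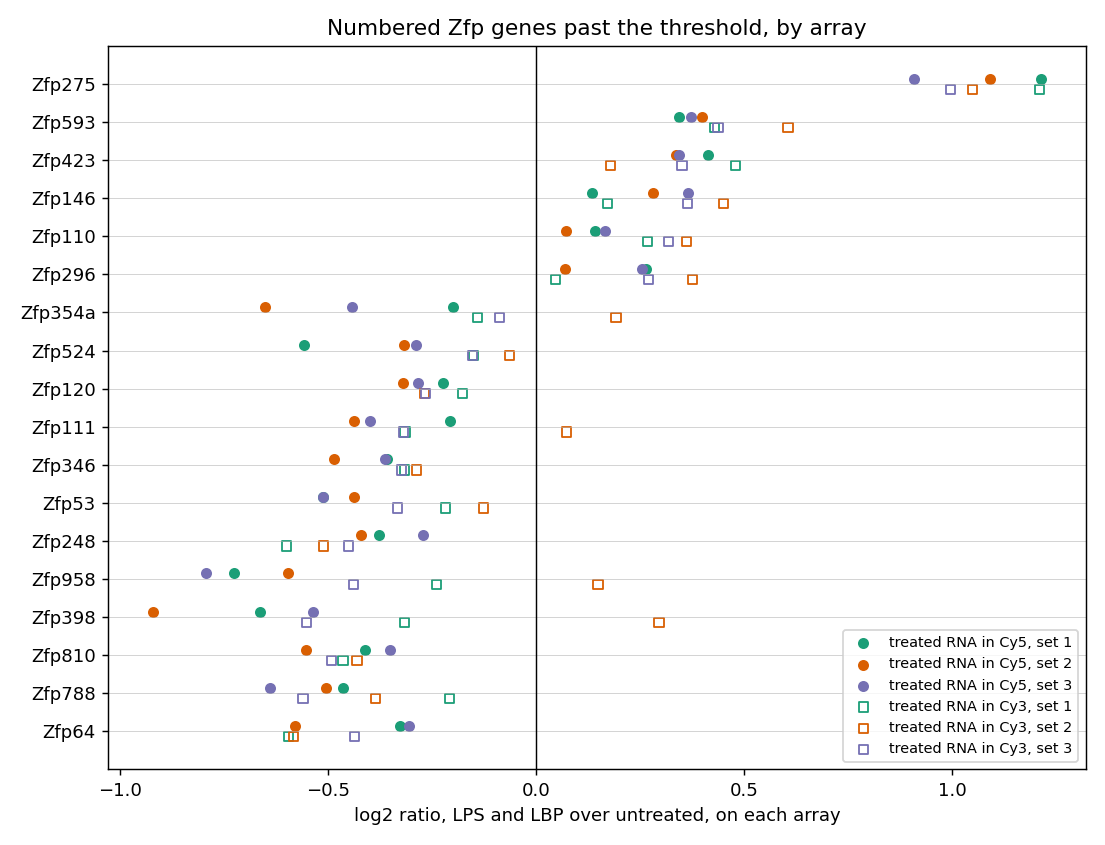
Log2 ratio of treated over untreated cells on each of the 6 arrays for the 6 higher and 12 lower numbered Zfp genes. Points are marked by dye orientation and set. Zfp275 lies between 0.91 and 1.21 on all arrays. The points of Zfp398 reach 0.29 and -0.92 on the pair of set 2.

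The 12 members that fell lay between -0.22 and -0.47, that is 1.17-fold to 1.39-fold lower after LPS and LBP, and 8 of them were negative on all 6 arrays. Zfp64, which in mouse macrophages promotes cytokine production triggered by Toll-like receptors, was the lowest. Its log2 ratios were -0.33, -0.58 and -0.31 with the treated RNA in Cy5 and -0.60, -0.58 and -0.44 with it in Cy3. The mean was -0.47 ± 0.11 (SD, n = 3 sets), 1.39-fold lower, with an adjusted p of 0.00295 by limma. It ranked 150 from the bottom of the 11231 features.

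Zfp788 and Zfp810 followed closely and were negative on all arrays. Zfp788 had -0.47, -0.51 and -0.64 in the Cy5 orientation and -0.21, -0.39 and -0.56 in the Cy3 orientation, with a mean of -0.46 ± 0.13, 1.38-fold lower (adjusted p = 0.00476, limma, n = 3 sets). Zfp810 had -0.41, -0.55 and -0.35 in the Cy5 orientation and -0.46, -0.43 and -0.49 in the Cy3 orientation. Its mean was -0.45 ± 0.04, 1.37-fold lower, with an adjusted p of 0.00155 by limma (n = 3 sets), the smallest among the members that fell. The means of Zfp64, Zfp788 and Zfp810 lay within 1 SD of each other.

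Zfp248 had -0.38, -0.42 and -0.27 with the treated RNA in Cy5 and -0.60, -0.51 and -0.45 with it in Cy3. Its mean was -0.44 ± 0.07, 1.36-fold lower (adjusted p = 0.00235, limma, n = 3 sets), and the Cy3 orientation was the lower throughout. Zfp53 was the other way round, at -0.51, -0.44 and -0.51 in the Cy5 orientation and -0.22, -0.13 and -0.33 in the Cy3 orientation. It averaged -0.36 ± 0.07, 1.28-fold lower, with an adjusted p of 0.00541 by limma (n = 3 sets).

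Zfp346, also called JAZ, binds double-stranded RNA through its fingers. Its log2 ratios were -0.36, -0.49 and -0.36 with the treated RNA in Cy5 and -0.32, -0.29 and -0.32 with it in Cy3. The mean was -0.36 ± 0.03, 1.28-fold lower (adjusted p = 0.00366, limma, n = 3 sets), and a single array, that of set 2 in the Cy5 orientation, stood below the other 5.

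Zfp120 had -0.22, -0.32 and -0.29 in the Cy5 orientation and -0.18, -0.27 and -0.27 in the Cy3 orientation, close together on all arrays. Its mean was -0.26 ± 0.05, 1.2-fold lower (adjusted p = 0.0151, limma, n = 3 sets). Zfp524 had -0.56, -0.32 and -0.29 with the treated RNA in Cy5 and -0.15, -0.06 and -0.15 with it in Cy3, so the orientations did not overlap. It averaged -0.26 ± 0.09, 1.19-fold lower (adjusted p = 0.0231, limma, n = 3 sets).

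The other 4 members that fell were each negative on 5 arrays and positive on the same 1, the set 2 Cy3 array. Zfp398, whose human counterpart ZER6 interacts with the estrogen receptor, was at -0.67, -0.92 and -0.54 in the Cy5 orientation and at -0.32, 0.29 and -0.55 in the Cy3 orientation. Its mean was -0.45 ± 0.12, 1.37-fold lower (adjusted p = 0.00451, limma, n = 3 sets). The average within a set put its lowest and its highest array together, so the SD between sets is far smaller than the spread between arrays.

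Zfp958 was at -0.73, -0.60 and -0.79 with the treated RNA in Cy5 and at -0.24, 0.15 and -0.44 with it in Cy3, and averaged -0.44 ± 0.20 (1.36-fold lower, adjusted p = 0.0143, limma, n = 3 sets). Zfp111 was at -0.21, -0.44 and -0.40 in the Cy5 orientation and at -0.32, 0.07 and -0.32 in the Cy3 orientation, and averaged -0.27 ± 0.09 (1.2-fold lower, adjusted p = 0.0199, limma). Both lost their call when the 6 arrays were fitted singly, with an adjusted p of 0.0564 for Zfp958 and 0.0511 for Zfp111. So did Zfp398, at 0.0894, and, among the members described above, Zfp524 at 0.0532 and Zfp296 at 0.0515.

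Zfp354a, a KRAB repressor of the kidney also called Kid1, was lower on the Cy5 arrays than on the Cy3 arrays. Its log2 ratios were -0.20, -0.65 and -0.44 with the treated RNA in Cy5, against -0.14, 0.19 and -0.09 with it in Cy3. The mean over sets was -0.22 ± 0.05, 1.17-fold lower (adjusted p = 0.0249, limma, n = 3 sets). It passed on neither orientation alone, at -0.43 on the Cy5 arrays (adjusted p = 0.0927, limma) and -0.01 on the Cy3 arrays (0.936). With the 6 arrays fitted singly its adjusted p was 0.270, and with a dye term beside the treatment 0.0992. Zfp110, Zfp111, Zfp120, Zfp146, Zfp296 and Zfp524 also passed on neither orientation alone.

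The remaining 64 members did not pass the threshold, with 28 means above 0 and 36 below, between -0.39 for Zfp40 and 0.18 for Zfp142. Zfp40 averaged -0.39 ± 0.31 (adjusted p = 0.0695, limma, n = 3 sets), within reach of the called falls but with a spread between sets nearly as large as its mean. A total of 37 had means within 0.1 of 0. The 95% interval of the mean lay within a 1.5-fold change in either direction for 63 of the 64 and within 1.2-fold for 42, so a larger change of the mean over these sets was outside the interval for most of them. Negative values on all 6 arrays were seen for 4 of them, Zfp148, Zfp87, Zfp90 and Zfp94, and positive values on all arrays for 0. Together with the called members, 6 members were positive on all arrays and 12 negative, against 8.93% and 10.2% of all features.

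Zfp148, also called ZBP-89, a factor that binds GC-rich promoters, was the nearest miss, at -0.18 ± 0.06 with an adjusted p of 0.0533 (limma, n = 3 sets). The other members named in this paragraph were chosen for their known roles after their values were seen. Zfp281, a regulator of pluripotency, was at 0.15 ± 0.17 (adjusted p = 0.244, limma, n = 3 sets). Zfp318, needed in B cells for the splicing that gives surface IgD, was at 0.13 ± 0.12 (adjusted p = 0.225). The spread between sets was as large as the mean, or nearly so, for both. Zfp57, which keeps DNA methylation at imprinted genes, ran from -0.44 to 0.67 over the arrays, with a mean of -0.07 ± 0.27 (adjusted p = 0.727). Zfp207, also called BuGZ, a spindle assembly protein, was at 0.02 ± 0.06 (adjusted p = 0.804).

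**Figure D4:**
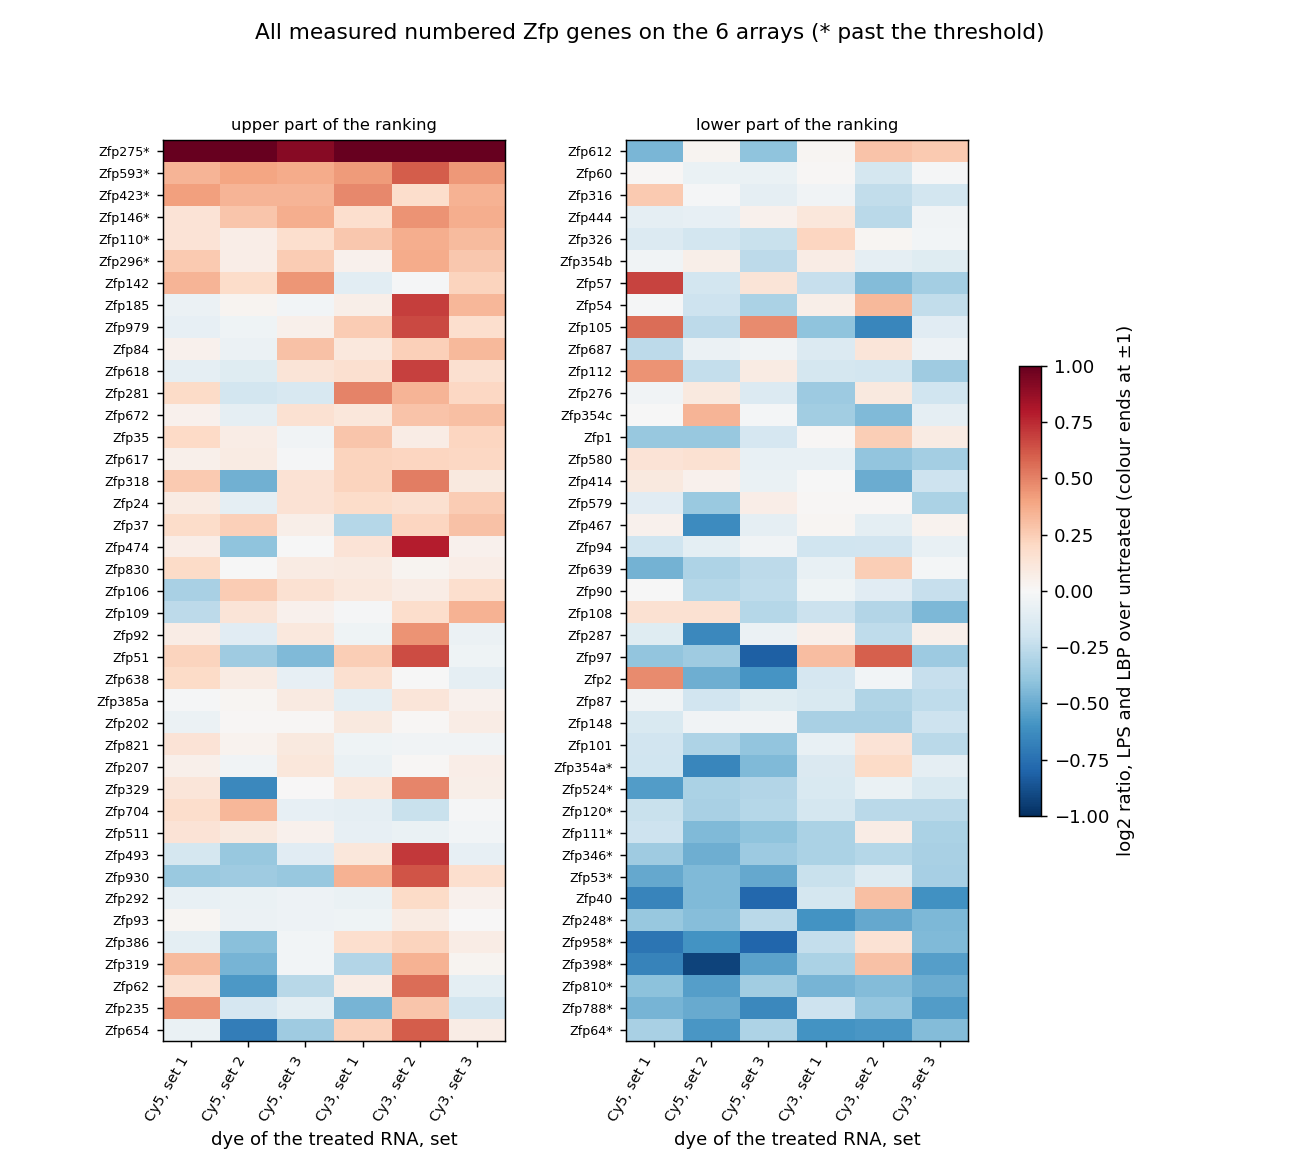
Log2 ratio of treated over untreated cells for all 82 measured numbered Zfp genes (rows, ranked by mean, in a pair of panels) on the 6 arrays (columns, by dye of the treated RNA and set), with colour ends at -1 and 1 and an asterisk for members past the threshold. The column of the set 2 Cy3 array is the highest of the row for 36 members.

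The pair of arrays of set 2 stood apart for the members. The set 2 Cy3 array had a member median of 0.11 and 51 positive members (62.2%), against 48.5% of the other features. The set 2 Cy5 array had a member median of -0.12 and 31.7% positive members, against 50.0% of the other features. The positive lean of one and the negative lean of the other nearly cancelled in the set average, whose member median was -0.01. The set 2 array of the Cy3 orientation was the highest of the 6 for 36 members (43.9%) and for 27.5% of the other features, and that of the Cy5 orientation was the lowest for 28 members (34.1%) and for 23.9%. The fit to single arrays gave 5 members higher and 7 lower, with 690 higher and 686 lower over all features. Leaving out the set 2 Cy3 array gave 4 members higher and 13 lower, with 645 and 631 over all features. Leaving out either array of set 3 gave 3 members higher and 7 lower, with 514 and 427 over all features without the Cy5 array and 488 and 397 without the Cy3 array. On the other 4 arrays member medians were between -0.05 and -0.01. The part of dye and of these arrays in the balance was not tested beyond the values given here.

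The balance differed between the dye orientations. On the Cy5 arrays alone, 3 members were higher and 8 lower, with 347 higher and 292 lower over all features. On the Cy3 arrays alone, 2 members were higher and 3 lower, with 408 higher and 247 lower over all features. The mean of the Cy3 arrays was positive for 52.4% of members, with a member median of 0.02. Of the single Cy3 arrays that of set 2 alone had a positive member median, and those of sets 1 and 3 had 47.6% and 43.9% of members positive, against 48.0% and 48.7% of the other features. A dye term in the fit to single arrays passed for 0 members (22 of 82 at an unadjusted p under 0.05, limma) and for 0.499% of all features (2832 of 11231 unadjusted). A total of 6 members (7.32%) were positive on every array of 1 orientation and negative on every array of the other, against 13.1% of all features.

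**Figure D5:**
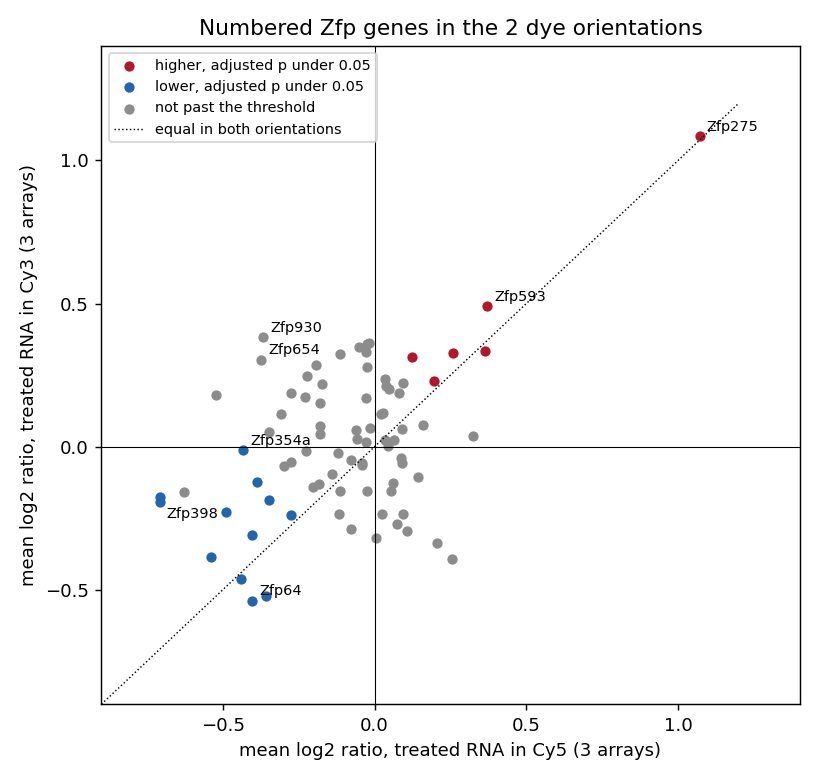
Mean log2 ratio, treated over untreated, on the 3 Cy5 arrays (x axis) and on the 3 Cy3 arrays (y axis), 1 point per numbered Zfp gene. Zfp275 lies on the line of equality, Zfp354a close to 0 on the Cy3 arrays and Zfp930 on opposite sides of 0.

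No group of neighbouring members passed the threshold as a whole. In the gene order of GRCm38.p6, 26 measured members lay in 10 groups with at most 5 protein-coding genes between neighbouring members. Of these 2 were higher and 3 lower, with a median of the mean log2 ratios of -0.06. Of the 56 members without such a neighbour 4 were higher and 9 lower, with a median of -0.02. Over all features 7.35% were higher and 7.45% lower. The largest group held Zfp112, Zfp235, Zfp111, Zfp109, Zfp108, Zfp93 and Zfp94, of which Zfp111 alone passed the threshold, with means from -0.27 to 0.07. In the group of Zfp54, Zfp51 and Zfp53 only Zfp53 passed. Zfp92, the neighbour of Zfp275, had a mean of 0.07.

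The corepressors through which KRAB zinc finger proteins act moved in both directions, and most did not pass the test. Of 34 genes in a list of TRIM28 partners and the heterochromatin machinery, 24 were measured on all arrays. Of these 3 rose, 2 fell and 19 did not pass, with a median of 0.00. The called share was 20.8%, against 14.8% of all features. Resf1, which works with SETDB1 in silencing endogenous retroviruses, was at 0.84 ± 0.06 on the log2 scale (adjusted p = 0.000170, limma, n = 3 sets). Daxx, a histone H3.3 chaperone, was at 0.52 ± 0.22 (adjusted p = 0.00976), and Dnmt3a, a de novo DNA methyltransferase, at 0.50 ± 0.05 (adjusted p = 0.00109). Dnmt1, which maintains DNA methylation, was at -0.21 ± 0.04 (adjusted p = 0.0283), and Suv39h2, a histone H3 lysine 9 methyltransferase, at -0.24 ± 0.05 (adjusted p = 0.0189). The central pair of the pathway did not pass: Trim28 was at -0.13 ± 0.05 (adjusted p = 0.120, limma) and Setdb1 at -0.15 ± 0.06 (adjusted p = 0.102). Both were negative on all 6 arrays, as were 10.2% of all features. Their unadjusted p were 0.0271 and 0.0213 by limma.

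Of 14 measured genes among 20 corepressors of other kinds, 1 rose, 2 fell and 11 did not pass, with a median of -0.01. The called share was 21.4%, against 14.8% of all features. Sap30, a subunit of the SIN3 complex, was at 0.22 ± 0.05 (adjusted p = 0.0249, limma, n = 3 sets), Tle1, of the Groucho family, at -0.36 ± 0.06 (adjusted p = 0.00431) and Hdac5, a class II histone deacetylase, at -0.27 ± 0.02 (adjusted p = 0.0103). Tle1 read -0.95 on the set 2 Cy5 array and 0.11 on the set 2 Cy3 array, a spread that its SD between sets does not show.

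Zinc finger genes under other names were set beside the numbered ones. The 16 measured genes named Zbtb and a number mostly pair C2H2 fingers with a BTB domain. They include Zbtb8os, which is not of that kind, at -0.06 (not past the threshold). Of the 16, 4 rose and 4 fell. That is 50.0% called, against 14.8% of all features, with a median of 0.03. Zbtb22 was at 1.33 ± 0.11 (SD, n = 3 sets), a mean above that of Zfp275, but read 0.64 on the set 2 Cy5 array and 1.78 on the set 2 Cy3 array. Zbtb7a, a repressor also called LRF, was at 0.88 ± 0.12, Zbtb43 at 0.44 ± 0.06 and Zbtb17, the MYC partner MIZ1, at 0.37 ± 0.11. The 4 that fell were Zbtb4, a binder of methylated DNA, at -0.71 ± 0.09, Zbtb14 at -0.26 ± 0.04, Zbtb18 at -0.24 ± 0.11 and Zbtb20 at -0.21 ± 0.04. Zbtb18 was positive on 1 array, at 0.11 on the set 2 Cy5 array. Of 8 Zscan, Zkscan and Znf genes (12.5% called) 0 rose (1 at an unadjusted p under 0.05, limma). The 1 that fell was Zkscan3 at -0.18 ± 0.03 (adjusted p = 0.0490). The 3 genes left out by the rule encode CCCH zinc finger proteins that bind and destabilise mRNA: Zfp36 was at 0.85 ± 0.08 and Zfp36l1 at 1.25 ± 0.09, both higher, and Zfp36l2 at -0.33 ± 0.08, lower. Zfp36l2 was positive on 1 array, at 0.04 on the set 1 Cy5 array. The difference between these families and the numbered members was not tested.

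The 8 genes without a probe measured on all 6 arrays were not part of these counts. Zfp239 had values on 5 arrays, all negative, between -0.33 and -0.44, with a mean of -0.41. In a fit to single arrays that allowed missing values its adjusted p was 0.00250 by limma. Zfp119a, Zfp42, Zfp46 and Zfp644 also had 5 values, and Zfp28 and Zfp30 had 4, with means from -0.17 to 0.20 and adjusted p from 0.426 to 0.932 in that fit. Zfp42, also called REX1, a marker of pluripotent cells, ran from -0.72 to 0.51. Zfp773, and a second probe of Zfp101, had no measured value on any array.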

How the data were processed

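RNA of treated and untreated RAW 264.7 cells was compared on 6 2-colour arrays. The deposited values are log2 ratios of an array's channels, 1 per probe; the log base was read from the values, and the sources used here do not give the background correction, dye normalization or software. Depth does not apply to arrays, and their number limits the precision. Exact zeros (9.12% to 12.4% of an array) were taken as missing. The direction, Cy5 over Cy3, is likely from the labels and is not stated. Array medians lay between 0.00 and 0.02.

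Ratios of arrays with treated RNA in Cy3 were multiplied by -1, complete probes of a gene averaged, and arrays of the same set number averaged. Means of the 3 sets were compared with 0 in limma 3.58.1 under R 4.3.3 (two-sided lmFit and eBayes) and adjusted by Benjamini-Hochberg over 11231 features at 0.05, after a check on simulated data. Arrays were paired by the labels' set numbers. Before turning, deviations of same-numbered arrays from their orientation's mean correlated across features with r of 0.40, 0.43 and 0.14 (n = 11231). Across the members r was -0.10, 0.11 and -0.26 (n = 82). A positive r before turning means opposite deviations within a pair after turning, which the set average cancels. The SD between sets can then be smaller than the spread between arrays. The p-values rest on that SD and, through eBayes, on the spread between sets over all features. All members past the threshold are named, with values by array. Gene symbols came from the platform annotation, and all 90 members matched RefSeq by gene ID. Members and lists were chosen with earlier results of these data known. A split by protein class was not run. Alternatives changed replicates, dye orientation, centring, scaling, zeros, missing values, probes, prior, threshold and test.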

Additional observations from a re-analysis of the deposited data

Results flagged for a closer look

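A single array stood apart from the other 5 for 2 of the 18 members past the threshold. Both gaps were only just large enough to be flagged. Chance gives a gap of that size in about 1 of 20 groups of arrays, so 2 of 18 is not clearly above chance. The share of all features with such a gap is not given here. Zfp593 was highest on the set 2 Cy3 array, at 0.60 on the log2 scale, and Zfp346 was lowest on the set 2 Cy5 array, at -0.49. Both kept their sign on all arrays.

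For 6 members (7.32%) every array of 1 dye orientation had the opposite sign of every array of the other, against 13.1% of all features. The mean with the treated RNA in Cy5 minus the mean with it in Cy3 was -0.75 for Zfp930 (adjusted p = 0.0575 for the dye term, limma, n = 3 arrays per orientation). Its arrays read -0.37, -0.35 and -0.38 in the Cy5 orientation and 0.35, 0.63 and 0.17 in the Cy3 orientation. The same difference was -0.68 for Zfp654 (adjusted p = 0.114, limma), -0.42 for Zfp1 (0.0817), -0.33 for Zfp386 (0.156), 0.15 for Zfp511 (0.221) and 0.13 for Zfp821 (0.273). None of these 6 differences passed the adjusted threshold, and their cause was not tested.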

How the results depend on the processing

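The counts of members past the threshold, 6 higher and 12 lower (826 and 837 over all features, which follow each count in parentheses), depended on how the arrays were combined, and the counts over all features moved as well. With the 6 arrays fitted singly and no replicate block 5 were higher and 7 lower (690 and 686). With the set number as a random replicate block 7 were higher and 16 lower (1089 and 1193; consensus correlation -0.44), and of the named members only Zfp354a lost its call (adjusted p = 0.0506, limma). With the treated RNA in Cy5 only there were 3 higher and 8 lower (347 and 292), and with it in Cy3 only 2 higher and 3 lower (408 and 247), with a median of 0.0187 and 52.4% positive. At a threshold of 0.01 there were 3 higher and 7 lower (475 and 360). Against a 1.2-fold change there were 1 and 0 (264 and 130), with 2 and 7 members at an unadjusted p under 0.05. Without moderation there were 0 and 0 (1 and 0), with 6 and 12 members unadjusted (limma throughout). Leaving out 1 set or 1 array gave 2 to 6 higher and 3 to 15 lower (352 to 854 and 211 to 831), medians from -0.0527 to -0.004 and 36.6% to 48.8% positive, the fewest calls without set 3. Over the 413 values of named members under the alternatives, 274 passed the threshold, 139 did not and 0 changed sign. Many alternatives, such as those of the replicate block, dye term, prior, threshold or test, left each mean unchanged. No sign change was possible there. Zfp275 passed under 22 of 23 alternatives, Zfp593 and Zfp810 under 21, Zfp64 and Zfp248 under 20, and Zfp296 and Zfp354a under 6. How far each spot stood over background is unknown.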
